A study of Mus musculus with 5 samples.

Results

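Marker-positive columnar cells are the columnar tumor cells in which transcripts of dividing cells were counted in mice given chemotherapy. They were chosen from measured values. A cell of a treated library with at least 500 genes and at most 15% mitochondrial counts was columnar if it held at least 5 raw UMIs (counted molecules) of Krt8, Krt18 and Lgals4 together, more of these than of Krt5 and Krt14, and under 3 UMIs of Ptprc, Tyrobp, Csf3r, Pecam1, Cdh5 and Dcn. It was a member if it also held under 2 UMIs of the stem cell gene Lgr5 and at least 3 UMIs of Mki67, Top2a, Cenpf and Ube2c together. The rule found 587 cells among 4109 columnar cells with Lgr5 under 2, 4680 columnar cells, 7396 treated cells and 8491 cells of all 5 libraries.

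The tumors were induced in the colon of WT (wild type) mice with azoxymethane and dextran sodium sulfate (AOM/DSS), a model of inflammation-driven colorectal cancer, and all treated mice received 5-Fluorouracil (5-FU) and Irinotecan. Cells of the dissociated tumors were captured by inDrop, a droplet method. Day 1 was sampled in 2 libraries and formed the early treatment group (n = 2), and the libraries of day 3 and day 6 formed the late treatment group (n = 2). These names follow the study, whose accounts differ on whether days are counted within treatment or after its last cycle, so that early and late give only the order of sampling. The fifth library, of untreated WT colon dissociated for fibroblasts, entered no test. The study's methods give animals of C57BL/6J or mixed C57BL/6J and 129 background and both sexes where possible, without assigning a background, a sex, an age or a number of animals to a library. Values for the treated libraries are given in the order day 1 replicate 1, day 1 replicate 2, day 3, day 6.

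The sex-linked genes separated the early libraries from the late ones, which bears on each comparison over time. Over all cells, Xist, which is transcribed from the inactive X chromosome of females, was at 0, 0.119, 27.2 and 101 CPM (counts per 1000000 UMIs). Ddx3y, a gene of the Y chromosome, was at 63.8, 79.5, 1.35 and 0.249. Sex and treatment time can therefore not be told apart in these libraries. Each group held 1 library with a single index (day 1 replicate 1, day 3) and 1 with dual indices (day 1 replicate 2, day 6). Libraries held 5132360 to 16904947 UMIs, and 159 barcodes occurred in more than 1 library, of which 2 were members in more than 1.

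Dividing cells switch on genes in waves. E2F factors drive genes for nucleotide supply and replication in S phase, and the DREAM and MuvB complexes then govern genes for chromosome condensation, the spindle and mitotic kinases in G2 and mitosis. In the colon, division is confined to the lower crypt, and cells stop dividing as they mature into colonocytes, goblet or enteroendocrine cells. 5-FU, through its metabolites, blocks thymidylate synthase (Tyms), and the active form of Irinotecan traps topoisomerase I (Top1) on DNA, so that both act in replicating cells.

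The 4 libraries held 24, 105, 177 and 281 members, which was 6.40%, 9.33%, 19.0% and 16.8% of the columnar cells with Lgr5 under 2. These shares come from the rule and carry no test. Members were deep cells: their median was 12213, 10486, 6989 and 13266 UMIs, against 2296, 2841, 2232 and 1588 in columnar cells without a marker UMI. A limit of 3 UMIs is passed more easily by a deep cell, so the raw shares and the depth move together. Of the members, 97 held UMIs of 1 marker gene, 279 of 2, 162 of 3 and 49 of all 4. Summed over members, Top2a, which untangles replicated DNA, stood at 222, 378, 339 and 367 CPM, Mki67, a component of the mitotic chromosome surface, at 121, 200, 73.9 and 111, Ube2c, which serves the anaphase-promoting complex, at 231, 192, 353 and 275, and Cenpf, a kinetochore protein, at 28.9, 29.2, 13.05 and 16.7.

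The name of the cells held for high marker sums and not for low ones. Genes of a G2M list, without the markers themselves, summed to 10665, 12234, 13933 and 11968 CPM in cells with at least 10 marker UMIs, against 2741, 2311, 4612 and 3311 in cells with none. At the limit of 3 marker UMIs, the same genes stood at 2323, 2743, 5472 and 3201 CPM, and just outside it, at 2 marker UMIs, at 3181, 2511, 5654 and 3078. Members just inside the limit were thus close to cells without a marker UMI, and in day 1 replicate 1 and day 6 below them. In day 6, 108 of the 281 members held 3 marker UMIs and 51 held 4, at 3465 CPM for the latter. For this reason the cells are called marker-positive here, and counts were repeated for members with at least 10 marker UMIs. Day 1 replicate 1 held 4 such members, under the limit of 10 cells per sum, and did not enter those fits.

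**Figure D1:**
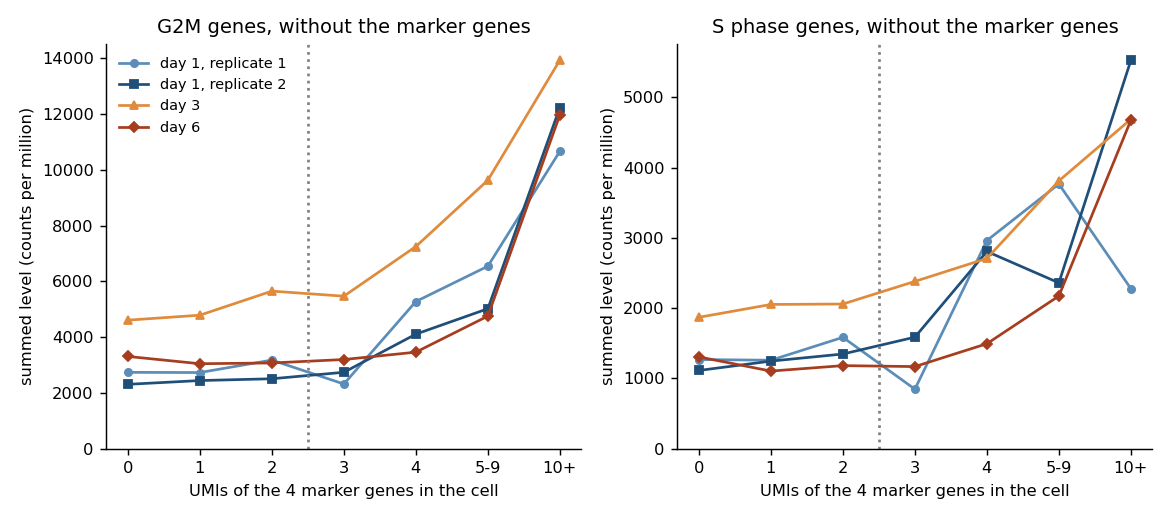
Summed level of the G2M genes (left) and S phase genes (right), in CPM without the marker genes, of columnar cells with Lgr5 under 2, against the number of UMIs of the 4 marker genes in the cell. Each line is 1 treated library and the dotted line marks the limit of 3 UMIs; G2M levels at 3 lie close to those at 0 and are highest at 10 or more in every library.

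Most members held more G2M than S phase transcripts: 21 of 24, 92 of 105, 176 of 177 and 257 of 281 cells. The median member held 34, 22, 17 and 15 UMIs of S phase genes and 54, 46, 53 and 45 of G2M genes, which are lists of different length, so that only their change between libraries can be compared. By identity genes the members were columnar. Cdh17, an intestinal cadherin, stood at 561, 620, 527 and 765 CPM in members, at 573, 645, 729 and 860 in columnar cells without a marker UMI, and at 125, 115, 195 and 106 in squamous cells. Trp63, the squamous master regulator, stood at 11.6, 1.36, 19.6 and 8.99 in members and 409, 245, 150 and 404 in squamous cells.

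To describe what else set the members apart, each was paired within its library with 1 columnar cell without a marker UMI (Lgr5 under 2) whose total UMIs lay within 10% of its own. Pairs were found for 403 members (20, 100, 126 and 157), and 184 deep members had no partner. After pairing, median UMIs were 8967 against 8912, 9279 against 9131, 5267 against 4859, and 4867 against 4865. Counts were summed over cells per library and fitted with edgeR, with the library as a block, so that the 4 libraries are the replicates. The genes of the rule were left out of the tests. In this and the later fits, levels of single genes are CPM of the normalised library size, given for members and then for partners, and each fold is the fitted log2 difference with its SE (n = 4 pairs of sums).

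Of 8955 genes tested, 721 passed at an adjusted p under 0.05 (8.05%), of which 347 were higher (3.87%) and 374 lower (4.18%) in members. DESeq2 called 155 and 152. Whatever the test, 14.0% of genes were higher and 13.7% lower in members of all 4 libraries. Cells were sorted by 4 genes of the cell cycle, so the rise of other genes of the cell cycle describes the members and is no independent finding. Genes that passed the filter on low counts only through the members had to differ. Several lists are therefore also counted without that filter, where 501 of 18293 genes rose and 528 fell.

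Genes of G2 and mitosis stood highest. In the G2M list, 63 of 70 tested genes rose, none fell, and the median log2 fold was 2.04, beside a median of 0.00 over all genes. Without the filter on low counts 87 of 97 rose. In members with at least 10 marker UMIs, 67 of 69 rose, with a median of 3.30.

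Spindle and kinetochore genes were among the genes with the largest folds. Kif11, the motor that pushes spindle poles apart, stood at 19.0, 57.3, 46.3 and 51.7 CPM in members and at 4.21, 4.76, 6.30 and 8.67 in partners, so that the groups did not overlap. Its log2 fold was 2.97 ± 0.29 (edgeR, adjusted p = 3.08e-05). Kif18b, a kinesin of astral microtubules, stood at 19.0, 22.8, 37.9 and 18.1 against 0, 0, 7.87 and 3.25 (3.14 ± 0.52). Cdc20, the activator of the anaphase-promoting complex, stood at 19.0, 42.6, 54.7 and 81.6 against 0, 1.59, 20.5 and 6.50 (2.96 ± 0.39), where the partners of day 3 lay above the members of day 1 replicate 1. Ndc80, the microtubule anchor of kinetochores, had a log2 fold of 2.86 ± 0.49, Nek2, a centrosome kinase, of 2.80 ± 0.35, and Spag5, a spindle protein outside the list, of 3.46 ± 0.49, the largest of the genes called with 1 sign in all libraries.

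The engines of mitosis rose with them. Cdk1, the mitotic kinase, stood at 103, 81.5, 288 and 137 CPM against 21.0, 13.5, 94.4 and 29.3 (2.04 ± 0.18, edgeR, adjusted p = 1.87e-05). Its partners cyclin B1 (Ccnb1) and cyclin A2 (Ccna2) had log2 folds of 2.67 ± 0.32 and 2.34 ± 0.26. Plk1 stood at 72.2, 71.3, 334 and 103 against 37.9, 26.2, 94.4 and 26.0 (1.69 ± 0.17), and Aurka at 41.8, 27.2, 88.4 and 32.6 against 8.42, 5.55, 23.6 and 20.6 (1.59 ± 0.29). These kinases, which mature centrosomes and the spindle, were each higher in members in 4 of 4 libraries. Birc5 (survivin, a subunit of the chromosomal passenger complex) had a log2 fold of 1.79 ± 0.24. Partners of day 3 held more of these transcripts than partners of the other libraries for Cdk1, Plk1, Aurka, Birc5 and Ccnb1.

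Promoters of the G2M genes are shown for the 4 genes with the largest fold that hold both letters of the cell cycle homology region (CHR), TTTGAA, and a CCAAT box, since these elements are known to bind MuvB complexes and NF-Y. Each line gives 120 bases before to 30 after the gene start on the strand of the gene, from RefSeq (GRCm38.p6), with matches on either strand in capitals.
Kif18b (chr11:102925095-102925244, minus strand): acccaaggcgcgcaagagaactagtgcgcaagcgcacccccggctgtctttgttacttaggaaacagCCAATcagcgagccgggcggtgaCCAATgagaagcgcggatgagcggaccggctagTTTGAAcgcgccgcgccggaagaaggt
Kif11 (chr19:37376262-37376411, plus strand): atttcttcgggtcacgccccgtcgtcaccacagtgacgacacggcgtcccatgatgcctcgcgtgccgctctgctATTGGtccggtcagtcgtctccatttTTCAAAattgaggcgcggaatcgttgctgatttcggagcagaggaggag
Cdc20 (chr4:118437314-118437463, minus strand): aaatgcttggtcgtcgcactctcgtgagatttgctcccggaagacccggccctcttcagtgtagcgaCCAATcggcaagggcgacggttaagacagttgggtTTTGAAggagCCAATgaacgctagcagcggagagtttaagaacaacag
Fbxo5 (chr10:5805436-5805585, minus strand): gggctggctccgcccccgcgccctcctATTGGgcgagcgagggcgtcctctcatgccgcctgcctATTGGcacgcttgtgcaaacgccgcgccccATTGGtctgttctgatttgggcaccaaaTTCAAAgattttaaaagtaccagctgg
Fbxo5, an inhibitor of the anaphase-promoting complex, had a log2 fold of 2.72. The CHR letters begin 3 bases after the gene start in Kif18b and Fbxo5, 19 bases before it in Kif11 and 18 before it in Cdc20.

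Over promoters of 300 bases (250 before to 50 after the start), 53 of the 63 G2M genes called higher had 57 entries. Of these, 38 (66.7%) held TTTGAA on either strand, 41 (71.9%) held CCAAT and 33 (57.9%) held both. Among 32851 promoters of the table the shares were 17.9%, 37.4% and 6.95%, and among 8998 promoters of the genes tested 11.8%, 36.9% and 4.58%. The CHR letters of G2M genes lay near the start: 19.3% of these promoters held them from 10 bases before to 20 after it, against 0.945% of the genes tested. The G2M list was built from genes known to peak in G2 and mitosis, and a match is a description of these letters only.

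**Figure D2:**
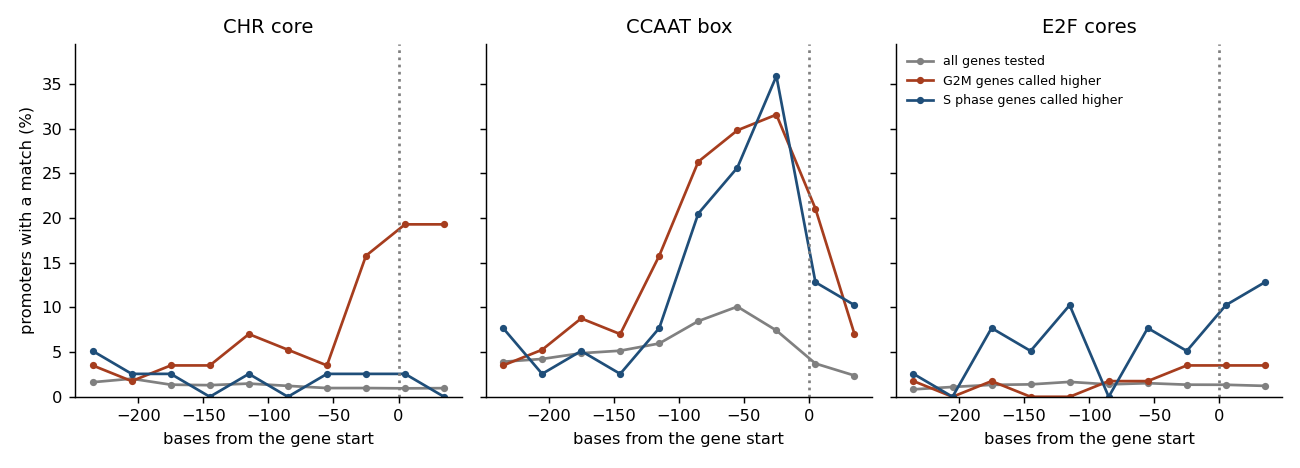
Share of promoters with a match (per cent, either strand) in bins of 30 bases against the distance from the gene start, for the CHR core, the CCAAT box and the E2F cores. Lines are promoters of all genes tested (grey), of G2M genes higher in marker-positive cells (red) and of S phase genes higher in them (blue); CHR matches of G2M genes gather at the start, at 19.3% in the bins on either side of 20 bases after it.

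Genes of S phase rose as well, by less. Of 51 tested genes of the S phase list 40 rose and none fell, with a median log2 fold of 1.396, and 47 of 68 rose without the filter. With DESeq2, 25 of 51 rose. Pcna, the sliding clamp of replication, stood at 297, 296, 475 and 428 CPM against 160, 111, 277 and 177 (1.12 ± 0.12, edgeR, adjusted p = 6.18e-05). Mcm5, a subunit of the replicative helicase, stood at 53.2, 59.5, 168 and 96.1 against 4.21, 8.72, 64.5 and 34.7 (1.78 ± 0.23). The helicase subunit Mcm2 stood at 26.6, 40.4, 65.9 and 47.1 against 25.2, 15.1, 20.5 and 19.5 (1.32 ± 0.24), hardly apart in day 1 replicate 1. Pole, the leading strand polymerase, had the largest fold of the list, 2.98 ± 0.47, and 2810417H13Rik, the PCNA-associated factor, one of 2.91 ± 0.29.

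The letters of E2F sites are shown for the 2 S phase genes with the largest fold that hold TTCCCGC or TTGGCGC: Prim1, the primase subunit that starts each new strand (log2 fold 2.20), and Rrm1, the large subunit of ribonucleotide reductase (1.92).
Prim1 (chr10:128015095-128015244, plus strand): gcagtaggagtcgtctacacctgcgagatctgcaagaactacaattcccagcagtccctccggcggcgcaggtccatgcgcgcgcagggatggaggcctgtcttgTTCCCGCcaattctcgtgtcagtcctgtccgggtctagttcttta
Rrm1 (chr7:102441575-102441724, plus strand): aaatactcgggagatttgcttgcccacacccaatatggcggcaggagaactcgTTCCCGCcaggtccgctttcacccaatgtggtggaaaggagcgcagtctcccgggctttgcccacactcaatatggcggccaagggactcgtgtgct
Of 39 promoters of 33 S phase genes called higher, 16 (41.0%) held these letters, against 12.1% of the promoters of the genes tested and 17.5% of those of the G2M genes. TTTGAA was found in 6 of the 39 (15.4%).

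The chromatin genes of dividing cells followed: 18 of 20 rose, with a median log2 fold of 0.92. Hmgb2, a chromatin protein of dividing cells, stood at 60.8, 44.1, 36.5 and 34.4 CPM against 8.42, 12.7, 17.3 and 4.33 (1.92 ± 0.30). The replication-dependent histones Hist1h2ap (2.59 ± 0.24) and Hist1h2ao (2.34 ± 0.27) rose most, but near-identical histone genes share reads, and the latter stood at 3.80 against 8.42 CPM in day 1 replicate 1, so their folds are uncertain. H2afx, the histone variant that is phosphorylated at DNA breaks, had a log2 fold of 1.30 ± 0.26 in transcript.

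Among genes of DNA repair and checkpoints 13 of 25 rose and none fell, and without the filter 18 of 46 rose. Brca1 stood at 19.0, 30.9, 26.6 and 22.7 CPM against 4.21, 3.96, 6.30 and 3.25 (2.58 ± 0.37, edgeR, adjusted p = 0.00034). Fancd2 of the Fanconi pathway had a log2 fold of 2.67 ± 0.44. In each of the 4 libraries both genes were higher in members than in their partners. Pbk, a mitotic kinase kept in this list, had a log2 fold of 2.83 ± 0.36, and Neil3, a glycosylase of the S and G2 phases, one of 3.02 ± 0.48.

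Of the drug targets, Tyms passed the test and Top1 did not. Tyms, the enzyme that 5-FU metabolites block, stood at 38.0, 72.7, 33.7 and 103 CPM against 12.6, 26.2, 18.9 and 41.2 (1.32 ± 0.19, edgeR, adjusted p = 0.000488), higher in members of 4 of 4 libraries. Top1, the target of Irinotecan, stood at 179, 239, 89.8 and 176 against 215, 206, 80.3 and 148 (0.14 ± 0.12, adjusted p = 0.576), with overlapping groups. Of 20 tested genes of drug targets and drug metabolism 7 rose (35%) and 2 fell (10%), beside 3.87% and 4.18% of all genes. Without the filter on low counts these were 7 and 2 of 30. Those that rose included genes of nucleotide supply: Tk1, thymidine kinase (2.26 ± 0.24), Rrm2 and Rrm1 of deoxynucleotide synthesis (2.00 and 1.92), Dut (1.36), Tyms and Shmt1 (0.56). Those that fell were Upp1, uridine phosphorylase, which handles 5-FU (-0.86), and Ces2c, a carboxylesterase (-1.09).

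Of 29 tested p53 targets, 2 rose (6.90%) and 1 fell (3.45%), beside 3.87% and 4.18% of all genes, with a median log2 fold of 0.11. Cdkn1a, the p21 inhibitor, stood at 954, 755, 1067 and 383 CPM against 900, 721, 1262 and 619 (-0.20 ± 0.13, edgeR, adjusted p = 0.408). Mdm2, the ligase that removes p53, had a log2 fold of -0.04 ± 0.19 and Ccng1 one of 0.11 ± 0.14. The 2 that rose, Gtse1 (2.14 ± 0.28) and Ckap2 (2.08 ± 0.26), are known as microtubule and spindle proteins made in G2 and mitosis. The one that fell, Btg2 (-0.65 ± 0.18), is an antiproliferative gene.

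In the list of G1 cyclins, CDK inhibitors and the RB family 4 of 23 genes rose (17.4%, beside 3.87% of all genes). These were E2f7, a repressor of E2F targets (2.44 ± 0.41), Cdkn2c, the p18 inhibitor (1.73 ± 0.42), Rbl1, the p107 pocket protein (1.15 ± 0.23), and Cdk4 (0.47). Mxd1, a partner of MAX that opposes MYC, fell, from 303, 248, 403 and 1031 CPM in partners to 129, 146, 201 and 497 in members (-0.98 ± 0.11, edgeR, adjusted p = 6.18e-05). Cyclin E1 (Ccne1) rose by 1.57 ± 0.35. Cyclin D1 (Ccnd1) had a log2 fold of 0.16 ± 0.19 and cyclin D2 (Ccnd2) one of -0.26 ± 0.11, and neither passed the test.

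No stem cell or WNT target gene passed the test: 0 of 29 with edgeR, and 0 with DESeq2. Without the filter on low counts 1 of 33 was lower. Without day 1 replicate 1, 2 were lower, beside 474 of all 9480 genes of that fit. The median log2 fold was 0.19, and 20 of the 29 folds were above 0. Axin2, a WNT feedback gene, stood at 95.05, 105, 57.5 and 25.4 CPM against 37.9, 88.0, 70.8 and 11.9 (0.34 ± 0.21, adjusted p = 0.403). Ascl2, Sox9 and Myc had log2 folds of 0.20 ± 0.29, 0.05 ± 0.11 and 0.36 ± 0.18. The rule held Lgr5 under 2 in both groups, which selects against stem cells on either side. With comparison cells of any Lgr5 level 4 of 29 were lower and none higher in members, beside 169 lower and 263 higher of all 9038 genes. In members with at least 10 marker UMIs 4 of 21 were higher and 3 lower, beside 522 higher and 606 lower of all 5903 genes of that fit.

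**Figure D3:**
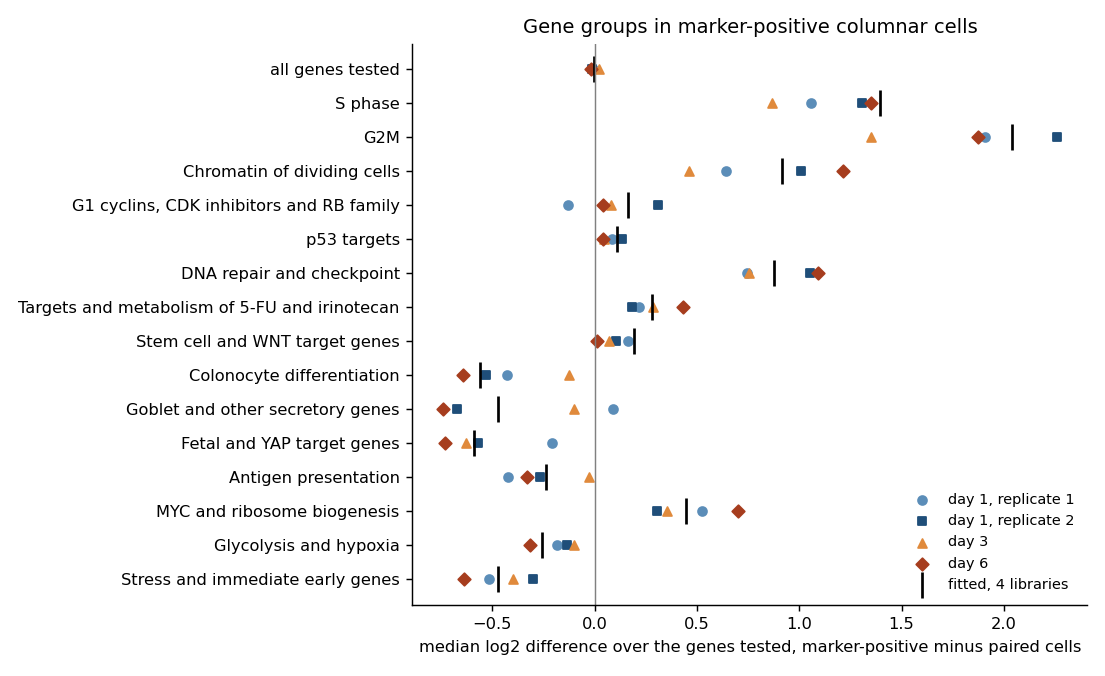
Median log2 difference between marker-positive cells and their paired columnar cells over the tested genes of each list (x axis), for each treated library (points) and in the fit over 4 libraries (vertical bars). S phase, G2M, chromatin and repair genes lie right of 0 in all 4 libraries, while colonocyte, fetal and stress genes lie left of it.

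Genes of the mature colonocyte were lower in members. In this list 14 of 30 tested genes fell and none rose, with a median log2 fold of -0.56, and without the filter 19 of 37 fell. Krt20, a keratin of surface colonocytes, stood at 163, 161, 282 and 878 CPM in members against 677, 423, 787 and 1686 in partners (-1.39 ± 0.14, edgeR, adjusted p = 3.08e-05), lower in each library although day 6 members lay above the partners of the other libraries. Car1, a carbonic anhydrase, stood at 87.4, 97.0, 125 and 894 against 358, 224, 222 and 1428 (-1.03 ± 0.15). Saa1 fell by 1.25 and Emp1 by 1.16 on the log2 scale. The chloride channel regulators Clca4a (-1.35 ± 0.31) and Clca4b (-1.22 ± 0.23) are near-identical copies, so that reads may be split between them. Cdx2, the intestinal identity factor, had a log2 fold of 0.16 ± 0.19 and did not pass.

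Hormone and granin genes of enteroendocrine cells were among those with the largest falls. Chgb, a granin of enteroendocrine granules, stood at 11.4, 8.08, 11.2 and 149 CPM against 938, 55.5, 67.7 and 589 (-2.75 ± 0.33, edgeR, adjusted p = 9.26e-05). Chga fell by 1.80 ± 0.30 on the log2 scale. In such sums fewer enteroendocrine cells and less transcript per cell cannot be told apart. Insl5, a hormone of colonic enteroendocrine cells, stood at 34.2, 2.94, 8.42 and 22.7 against 54.7, 27.8, 9.44 and 281 (-2.84 ± 0.38), with day 3 and day 1 replicate 1 little apart. Pyy, a hormone of the same cells, was lower in members in 2 of the 4 libraries only (-1.48 ± 0.35). In the secretory list 9 of 23 genes fell and 1, Defa17, rose (1.69 ± 0.40). Without the filter on low counts 16 of 34 fell and 3 rose. Defa17 was at 506 against 69.0 CPM in day 1 replicate 2 and below its partners in day 6, is one of many near-identical defensins, and its fold was -0.28 with at least 5 marker UMIs, so its direction is not settled. The rule does not remove enteroendocrine or goblet cells from the columnar class.

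Fetal and YAP target genes, which mark regenerating epithelium, fell in 13 of 22 cases and rose in none, with a median of -0.59. Sprr1a, a cornified envelope precursor induced in wounds, stood at 83.6, 90.4, 104 and 140 CPM against 400, 260, 340 and 285 (-1.51 ± 0.15, edgeR, adjusted p = 3.08e-05), and the groups did not overlap. Lama3, a laminin chain of the basement membrane, fell by 1.25 ± 0.15 on the log2 scale. Anxa1 stood at 722, 848, 439 and 1228 against 1237, 1676, 823 and 2223 (-0.88 ± 0.10).

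Outside the lists, the genes with the largest falls were secreted or enzyme genes. Arg1, arginase, stood at 15.2, 57.3, 54.7 and 195 CPM against 168, 161, 162 and 683 (-1.75 ± 0.16, edgeR, adjusted p = 2.18e-05). Nov, a matricellular protein, stood at 3.80, 3.67, 11.2 and 5.44 against 92.6, 44.4, 20.5 and 47.7 (-2.86 ± 0.38), without overlap. Ecm1, Ltf (lactoferrin), Csta1 (a cysteine protease inhibitor) and 2010109I03Rik had log2 folds of -1.90, -1.66, -1.64 and -1.67. Hba-a1, an alpha globin of red cells, stood at 144, 1163, 5.61 and 19.9 against 1818, 3787, 9.44 and 22.8 (-2.06 ± 0.33), which is a transcript that columnar cells do not make, and its near-identical copy may share its reads.

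Smaller shifts ran through growth, stress and antigen presentation genes, where 3.87% of all genes rose and 4.18% fell. In the MYC and ribosome biogenesis list 6 of 34 rose and none fell (median 0.45), among them Ncl, nucleolin, at 692, 593, 588 and 405 CPM against 480, 415, 458 and 221 (0.57 ± 0.11, edgeR, adjusted p = 0.00367), and Gar1 (0.88), Polr1a (0.85) and Impdh2 (0.73). Of stress and immediate early genes 6 of 23 fell, including Fos (-0.96 ± 0.16), Fosb (-1.13 ± 0.26) and Zfp36 (-0.63 ± 0.14), while the chaperone Hsp90aa1 rose by 0.61 ± 0.12. Of glycolysis and hypoxia genes only 2 of 22 fell (9.09%, beside 4.18% of all genes), the glucose transporter Slc2a1 (-0.83 ± 0.14) and hexokinase Hk2 (-0.45 ± 0.11). Antigen presentation genes fell in 4 of 21 cases. These were B2m (-0.71 ± 0.17) and the class I genes H2-T23 (-0.53 ± 0.12), H2-K1 (-0.41 ± 0.10) and H2-D1 (-0.36 ± 0.10), whose reads may be shared. None of these 4 passed without day 1 replicate 2.

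**Figure D4:**
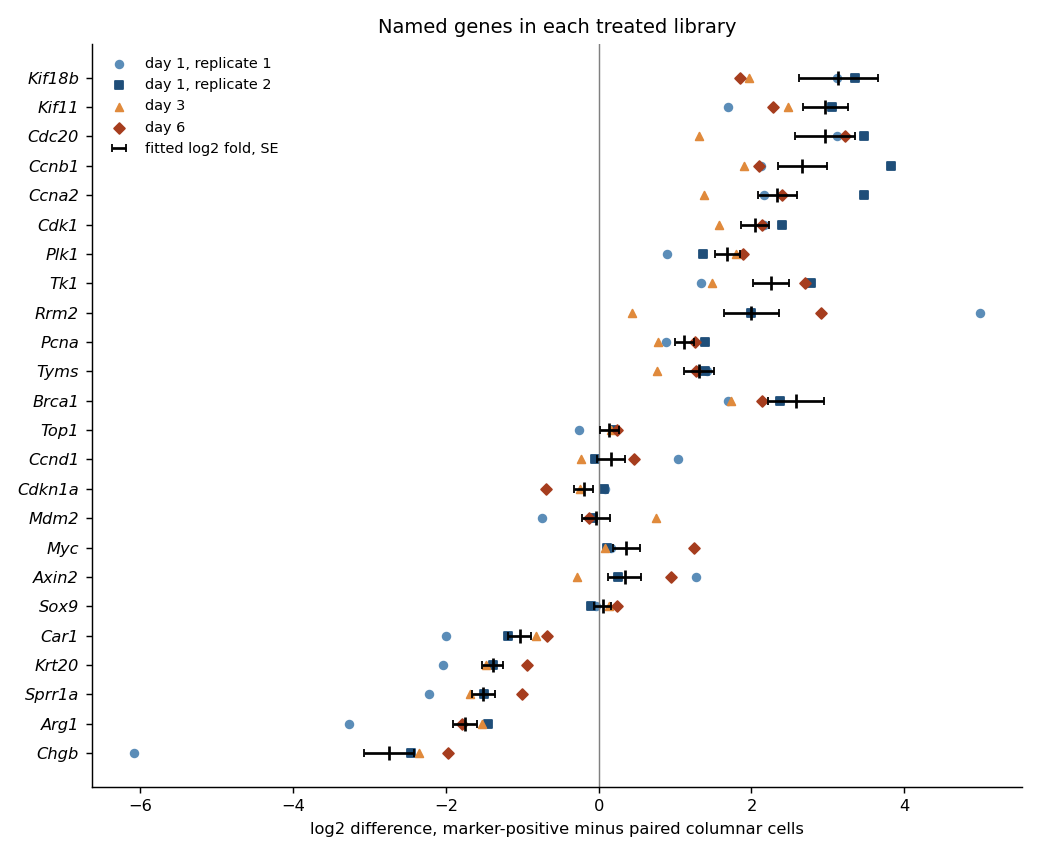
Log2 difference between marker-positive columnar cells and their partners of like depth (x axis) for 24 named genes, in each treated library (points) and as the fitted value with its SE (black bars). Mitotic and replication genes lie right of 0 in all 4 libraries, Top1, Ccnd1, Cdkn1a, Mdm2, Axin2 and Sox9 straddle it, and Krt20, Sprr1a, Arg1 and Chgb lie left of it in all 4.

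Transcripts of other cell types moved with the groups. Summed over 33 markers of immune, stromal, squamous, endothelial and red cells, members held 5167, 4920, 1828 and 23211 CPM and partners 29183, 13224, 2139 and 17979. Igkc of plasma cells led in day 6 (21470 UMIs in members, 15561 in partners), the globin Hba-a1 in the partners of day 1 replicate 2 (4777 UMIs), and the squamous keratin Krt6a in day 3 (447 and 580 UMIs). Of these markers 23 had fewer UMIs in members than in partners over the 4 libraries, and none was at 0 in both. The fibroblast collagens went the other way: Col1a1 had 295 UMIs in members and 74 in partners, Col1a2 117 and 23, and Col3a1 66 and 12. Of these, 266, 97 and 55 UMIs lay in the 20 paired members of day 1 replicate 1, against 1, 0 and 1 in their partners. Of 15 tested, 1 (Hba-a1) passed, and fell. Their part in the differences was not tested, but without cells that held at least 5% of UMIs from 7 plasma and red cell genes (a limit added with the values in view) the fit gave 383 genes higher and 409 lower, 65 of 71 G2M genes, 41 of 51 S phase genes and 16 of 30 colonocyte genes. Leaving out day 1 replicate 1, which held 20 pairs, gave 372 and 474 genes, with 76 of 82 G2M and 15 of 31 colonocyte genes. The other libraries carried more of the calls: the count of genes was 314 without day 1 replicate 2, 386 without day 3 and 335 without day 6. In these fits 54 of 67, 57 of 70 and 58 of 67 G2M genes and 21 of 46, 32 of 52 and 28 of 49 S phase genes rose, and 10 of 29, 10 of 31 and 11 of 27 colonocyte genes fell.

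Whether cells with a marker UMI took a larger share of the columnar cells in the late libraries was asked after thinning. Each cell was thinned to 2000 UMIs, since depth differs between libraries. Before thinning, cells with 1 marker UMI held G2M genes at 2734, 2447, 4791 and 3050 CPM, against 2741, 2311, 4612 and 3311 with none. The share is therefore one of cells with a marker UMI, not of cells shown to divide. Cells with fewer UMIs were left out (133, 285, 297 and 789). At least 1 marker UMI then remained in 55 of 242, 178 of 840, 275 of 636 and 351 of 887 columnar cells with Lgr5 under 2, which is 22.7%, 21.2%, 43.2% and 39.6% (exact 95% binomial intervals 17.6 to 28.5, 18.5 to 24.1, 39.3 to 47.2 and 36.3 to 42.9, covering counting error only). Both late libraries lay above both early ones, by 19.4 percentage points in the mean, and by 20.5 between the single index libraries and 18.4 between the dual index ones. The exact permutation test gave p = 0.333 (two-sided), the smallest that 2 against 2 libraries allow.

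The background of this share could be read for early treatment only. Neutrophils, which do not divide, held at least 1 marker UMI after thinning in 2 of 6 and 8 of 26 cells (30.8%) of the day 1 libraries, at median depths of 2352 and 2293 UMIs before thinning against 4021 and 5206 in columnar cells. The exact 95% intervals of these shares ran from 4.33 to 77.7% and from 14.3 to 51.8%, and held the shares of the columnar cells of the same libraries. By level the order was the other way: the markers stood at 112 and 161 CPM in neutrophils and at 186 and 200 CPM in columnar cells. How much of the early share is background was not settled by these few cells. Day 3 and day 6 held 2 and 3 neutrophils, too few for a share, and immune cells of day 6 gave 2 of 14 (14.3%). With at least 3 marker UMIs after thinning the shares were 3.31%, 3.45%, 5.35% and 5.41%, a difference of 2.00 percentage points. Among squamous cells of the same libraries, 34.2%, 22.8%, 43.0% and 38.3% held at least 1 marker UMI after thinning. Over all columnar cells with Lgr5 under 2 of day 3 and day 6, the markers stood at 377 and 416 CPM.

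Late and early treatment were then compared within the members. No gene of 10237 passed with edgeR (0%, over 4 libraries), while 614 had an unadjusted p under 0.05 and DESeq2 called 27 higher and 31 lower. With library structure as a block, since each group held 1 library of each kind, edgeR called 32 higher and 37 lower, and 1193 genes had an unadjusted p under 0.05. Both late libraries lay above both early ones for 18.4% of genes and below for 19.1%. The values below are given without a call, as the fit without a block made none. Without day 3, 518 genes passed, and without day 6, 5.

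No gene of the S phase and G2M lists passed, with or without that block. Tyms stood at 46.7, 80.5, 37.7 and 100 CPM, with overlapping groups. Tk1, at 63.2, 79.9, 190 and 116, and Plk1, at 90.6, 72.5, 301 and 109, were higher in both late libraries (log2 differences 1.076 ± 0.43 and 1.33 ± 0.55, edgeR, adjusted p = 0.825 and 0.827). The median log2 difference was 0.10 over 61 S phase genes and 0.22 over 94 G2M genes, beside 0.02 over all genes. Both medians were below 0 in members with at least 10 marker UMIs (-0.16 and -0.10). In that fit day 1 replicate 2 was the only early library.

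The genes with the smallest p included those of sex. Eif2s3y of the Y chromosome stood at 104, 87.2, 0 and 0 CPM in members and had the smallest adjusted p (edgeR, 0.0947). Ddx3y and Uty were among the 10 genes of smallest p that were lower in late libraries. Xist, at 0, 0, 27.7 and 102, was among the 10 that were higher. Cadps, a vesicle priming factor, stood at 118, 119, 4.61 and 0.548, Rpl39, a ribosomal protein gene, at 898, 452, 59.98 and 53.7, and Thbs1, thrombospondin, at 65.9, 82.3, 10.8 and 6.30. Cbr2, a carbonyl reductase, stood at 16.5, 7.99, 185 and 218, Cyp2f2, a cytochrome P450, at 8.24, 0.614, 154 and 189, and Ly6c1 at 76.9, 97.7, 399 and 512. With library structure as a block, 69 of 10237 genes passed. They included the 10 genes of smallest p in each direction, which were picked from the same libraries, so this is no separate support. In each of those named here the early and late libraries did not overlap, and sex, strain and treatment time cannot be told apart as their source.

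Antigen presentation genes had the largest median difference of the lists. H2-K1, a class I heavy chain, stood at 670, 326, 1377 and 3278 CPM in members (log2 difference 2.23 ± 0.62, edgeR, adjusted p = 0.715). In the fit of pairs, H2-K1 was at 525, 295, 1362 and 3244 in the paired members and at 766, 432, 1604 and 4174 in their partners. B2m, its light chain, stood at 316, 111, 353 and 2432 in all members (2.72 ± 0.94). In the pairs B2m was at 293, 98.4, 346 and 2401 in members and at 888, 178, 397 and 3168 in partners. In members, the class II genes H2-Ab1, at 68.6, 20.9, 119 and 1276, and H2-Aa, at 82.4, 21.5, 95.4 and 1493, were highest in day 6. Of 22 tested, 21 had a log2 difference above 0, with a median of 2.13. In 16 both late libraries lay above both early ones, beside 18.4% of all genes. The median per pair of like structure was 0.46 for single and 3.12 for dual index, and the fitted median was 1.24 without day 6. Without day 3, day 6 was the only late library, so genes of the list are not counted for that fit.

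Further lists leaned to 1 side without a call. Over all 10237 genes, 5266 log2 differences were above 0 and 4971 below. Of glycolysis and hypoxia genes 21 of 23 were above 0, with a median of 0.63. Of drug target and metabolism genes 18 of 23 were above 0 (median 0.52), and of repair and checkpoint genes 31 of 39 were below (median -0.35). Among WNT and stem cell genes 21 of 29 had a log2 difference below 0, with a median of -0.58: Axin2 stood at 76.9, 89.7, 50.8 and 14.8 CPM (-1.39 ± 0.61, edgeR, adjusted p = 0.827), and Nkd1, a WNT feedback inhibitor, at 60.4, 101, 23.8 and 2.19. Among p53 targets 25 of 33 were below 0, with a median of -0.50: Ccng1 stood at 170, 216, 44.6 and 85.7 (-1.56 ± 0.46, adjusted p = 0.73), and Cdkn1a at 799, 734, 959 and 429, with overlapping groups. Colonocyte genes had a median of 0.67, with Krt20 at 129, 148, 281 and 1022 and Car1 at 79.6, 103, 151 and 987. Day 6 carried the extreme value for most of the genes named here.

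**Figure D5:**
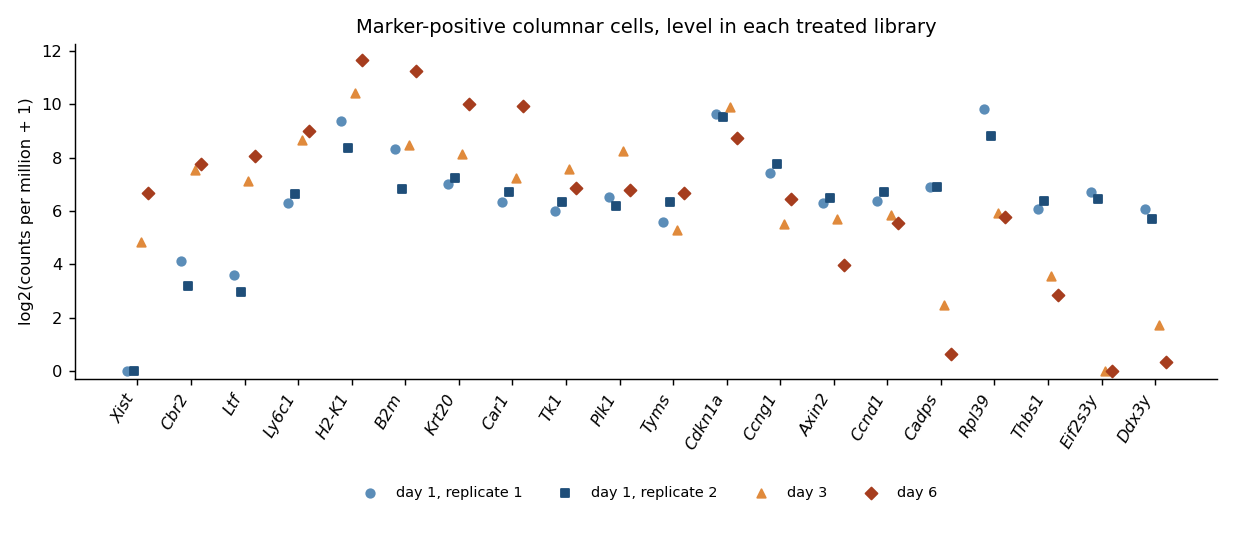
Level of 20 named genes in marker-positive columnar cells, as log2(CPM + 1), in each treated library (points). Xist and the Y-linked Eif2s3y and Ddx3y separate early from late libraries, H2-K1, B2m, Krt20 and Car1 are highest in day 6, and Tyms and Cdkn1a overlap between early and late.

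Finally, it was asked whether the late difference in members differed from that in their partners, by an interaction term with the library as a block. Of 10204 genes 10 were called with a larger late difference in members (0.098%) and 7 with a smaller one (0.0686%). The smallest p values were those of the plasma cell genes Jchain, Igkc and Igha, given with the other called genes in the closing section, and the count was 5 when cells rich in plasma and red cell transcripts were left out. Birc5 was the G2M gene called. It stood at 131, 116, 300 and 184 CPM in members and at 8.31, 13.5, 127 and 72.2 in partners (log2 difference -1.94 ± 0.38, edgeR, adjusted p = 0.0345). Over the G2M list, 69 of 87 differences were below 0, with a median of -0.68 beside 0.02 over all genes. The partners' summed G2M level was 2312, 2123, 4094 and 2786 CPM and that of their paired members 5395, 6462, 9529 and 6973. None of the 27 antigen presentation, 34 colonocyte, 31 WNT and stem cell and 32 p53 target genes tested was called. Their median differences were 0.12, 0.07, -0.12 and -0.08.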

How the data were processed

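Raw UMI counts per barcode and gene were used as deposited: the authors counted UMIs with dropEst on GRCm38.85, 1 file per library, without normalization, and stated the limits on genes and mitochondrial counts applied here. Members, lists and tests were chosen with earlier results of these data known. Members were paired with cells of like depth (seed 1), counts were summed per library with at least 10 cells, and edgeR 4.0.16 (TMM, filterByExpr, quasi-likelihood, Benjamini-Hochberg, threshold 0.05) was run in R 4.3.3, with DESeq2 1.42.0 as an alternative. The 28 genes of the rule, 12 of them mitochondrial, stayed in library sizes only. Log2 differences per library used a prior count of 2. No doublets were removed. The study calls the libraries of a group biological replicates, without an animal number per library, and p-values measure the spread between libraries. In simulated counts with 200 genes changed by a log2 fold of 2 (dispersion 0.05), edgeR called 180 of 182 tested for members against partners (5 unchanged genes called), 160 of 189 for late against early (3) and 59 of 196 for the interaction (0). DESeq2 called 174, 132 and 30. The simulated dispersion was set, not estimated from these libraries, so these rates need not hold for the real fits. Named genes were the 10 highest and lowest folds with 1 sign in every library, up to 4 per list by size, the 10 smallest p in each direction for late against early and 5 for the interaction, and a set of cell cycle, drug target, p53, WNT and colonocyte genes. Fbxo5, Nkd1, H2-Ab1, H2-Aa and the smaller folds listed were added after values were seen. Promoters were matched by symbol. Figures used matplotlib 3.10.9. Some named genes are not reported here.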

Additional observations from a re-analysis of the deposited data

Results flagged for a closer look

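The late difference of members and that of their partners differed by the interaction test (edgeR) for 17 genes. Genes of plasma and B cells had a larger late difference in members: Jchain (log2 difference 7.12), Igkc (3.06), Igha (5.77), Mzb1 (7.31), Pou2af1 (5.78) and Iglv1 (8.16). Jchain stood at 29.97, 17.5, 8.54 and 3043 CPM in members and 6432, 765, 3.16 and 1860 in partners, so that the partners of day 1 and both groups of day 6 held it. The chemokine Ccl22 (8.06), the sialic acid hydroxylase Cmah (5.16), the kinase Camk2b (1.28) and lactoferrin Ltf (2.54) were called in the same direction. Ccl22, Iglv1 and Pou2af1 had no UMI in day 3, so that their fitted values depend on the prior count. In the other direction stood BC037156 (-3.09), the goblet gene Retnlb (-1.74), the metallothionein Mt4 (-3.08), Birc5 (-1.94), Gm10104 (-5.32), the chemokine Cxcl2 (-2.53) and the lipase Pnliprp1 (-3.60).

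The untreated library, which entered no comparison, also held columnar cells with at least 3 marker UMIs: 27 of 344 (7.85%, exact 95% interval 5.24 to 11.2). After thinning, 12.5% of its columnar cells held at least 1 marker UMI.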

How the results depend on the processing

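For members against partners, 721 genes were called. The count was 307 with DESeq2, 217 after thinning to 2000 UMIs, 1104 against unmatched cells, 432 against cells of any Lgr5 level, 1128 with at least 10 marker UMIs, and 0 without the library block (345 at an unadjusted p under 0.05, where differences between libraries enter the error). It ranged from 314 to 846 without 1 library each. Counts under the other alternatives lay within 1.5 times, from 528 to 1029. Of the 77 named genes called, all kept direction in the fits that tested them except Defa17, at -0.28 with at least 5 marker UMIs and -0.77 against unmatched cells. For late against early, 0 genes were called, against 58 with DESeq2, 251 without the filter, 69 with library structure as a block, 43 with day as a covariate and 39 with at least 10 marker UMIs. Without 1 library each the count ranged from 0 to 518, the latter without day 3. For the interaction, 17 genes became 4 with DESeq2, 55 without the filter, 2 with at least 5 marker UMIs, 5 after thinning, 26 unmatched, 38 with up to 3 matches, 5 with any Lgr5 level, 5 with plasma and red cell transcripts limited, and 19 to 80 without 1 library each. Its sign turned with at least 5 and at least 10 marker UMIs for Jchain (-3.65 and -2.51), Igkc (-0.56 and -0.43), Igha (-2.02 and -0.85) and Retnlb (1.44 and 1.80), and without day 1 replicate 2 for Ltf (from -1.16 to 3.08 without 1 library each). The limits of 10 marker UMIs and on plasma and red cell transcripts were chosen after seeing the data. The cause of these moves was not tested. The late minus early share was above 0 under each alternative, from 2.00 to 21.98 percentage points, and from 17.6 to 21.3 without 1 library each. These alternatives reuse the same libraries and marker genes, so they are no separate support. For late against early, no paired analysis was possible because, by replicate number, only day 1 holds more than 1 sample. The block named for that comparison is of library structure, while the other fits had the library as a block.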
